A study of Homo sapiens with 26 samples.

Results

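The 28 genes described here carry out or control cholesterol synthesis, or are known targets of the transcription factor SREBP2 and its relative SREBP1. They were listed by gene symbol from pathway knowledge and were matched to the counted genes by identifier. The list was chosen with earlier results of these data known, so the shares of all genes set beside it below are a description. All 28 were found among the 63086 genes of the count tables, and 27 of them were among the 9099 protein-coding genes with enough reads to be tested. CYP51A1, the lanosterol demethylase, had 85 to 254 counts per library and was not tested.

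Cholesterol is built from acetyl-CoA in 3 stretches. The mevalonate and isoprenoid steps make farnesyl diphosphate, the squalene steps join and close it into lanosterol, and the last steps trim lanosterol to cholesterol. When sterols are low in the endoplasmic reticulum, the escort protein SCAP carries SREBP2 to the Golgi apparatus, where it is cut, and the released fragment enters the nucleus and switches these genes on. When sterols are plentiful, INSIG1 and INSIG2 hold SCAP back. SREBP1, made from SREBF1, works in the same way and acts more on fatty acid genes.

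The libraries were made from poly(A) RNA in cleared lysates of HCT116, a human colorectal carcinoma line. In 24 libraries the cells carried Tet-OsTIR1, both IGF2BP2 and IGF2BP3 had been knocked out by CRISPR, and mCherry-IGF2BP1, an RNA-binding protein, came from a lentivirus as WT, S181E, Y396E or RQ. S181E and Y396E put glutamate in place of a serine or a tyrosine that can be phosphorylated, and RQ puts glutamine in place of arginines of the first disordered linker. Each population was taken with PBS as control or after 2 h in 500 µM sodium arsenite, an oxidative stress, in 3 dishes each that were plated independently, so the p-values measure the spread between dishes of 1 population. The populations were sorted by a narrow mCherry gate and were not single clones, and there was 1 population per mutant, so the mutation and the population cannot be told apart. The knockout cells themselves had been grown from single sorted cells. Parental cells, labelled HCT116 with no knockout or transgene, gave 1 library per treatment, which stayed outside the tests.

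Library totals ranged from 22508145 to 50834401 counts. Protein-coding genes held 89.5% to 91.7% of the counts in the control libraries of WT and RQ, against 94.7% to 95.9% in S181E and Y396E. The factors that scaled the library totals were 0.866 to 0.964 in the former and 0.986 to 1.05 in the latter. What part this difference has in the results was not tested. Y396E arsenite replicate 3 stood apart, with 13897 genes that had any count against at least 20850 in the other 23, and the counts of calls in Y396E arsenite cells are given with and without it. The transgene RNA IGF2BP1 was not equal between the populations, at 11.9 ± 2.24 CPM (the count of a gene over the scaled library total, times 1e6) in control cells of WT, 14.2 ± 1.88 of RQ, 18.4 ± 1.54 of S181E and 16.3 ± 1.16 of Y396E (SD, n = 3). In arsenite it was at 28.8 CPM in WT, 46.5 in RQ and 42.7 in both S181E and Y396E, so that RQ was highest there. Its part in the results below was not tested. IGF2BP2 and IGF2BP3 RNA were still counted in every population, which does not test the knockouts because small deletions can leave the RNA in place. EPCAM, KRT8, KRT18 and KRT19, markers of epithelium, were above 305 CPM in every library, while the intestinal markers VIL1 and CDX1 were at or near 0, as were PTPRC, CD3E, PECAM1, CDH5, DCN, ALB and APOA1, markers of blood, endothelium, fibroblasts and liver, at 0.27 CPM or less. COL1A1, a collagen, was at 6.46 to 11.4 CPM. Among the epithelial markers, EPCAM and CDH1 were lower in S181E (-0.29 and -0.46 on the log2 scale) and Y396E (-0.28 and -0.42) than in WT control cells and KRT8 was higher (0.36 and 0.42), and the part of this in the results was not tested.

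In WT control cells the levels of the members, given per kilobase of exon so that genes can be compared, spanned from 1.61 CPM per kb for CYP51A1 to 174 for SCD, the stearoyl-CoA desaturase that makes oleate. After SCD came FDPS, the farnesyl diphosphate synthase, at 70.1, and SREBF2 itself, at 47.2. PMVK, TM7SF2 and EBP followed at 40.9, 40.3 and 38.6, which did not differ beyond their SDs of 3.90, 4.08 and 6.16. At the low end, LSS, HSD17B7 and SC5D were at 4.05, 4.92 and 5.88 CPM per kb. All other values below are CPM of the whole gene on scaled library totals, given as mean ± SD of 3 libraries where not listed by library, and all changes are log2 fold changes ± SE.

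The phosphomimetic mutants had less RNA of this pathway than WT. In control cells the summed level of the 27 tested members was 2840, 2770 and 2702 CPM in the WT libraries, 1689, 1603 and 1675 in S181E, and 1683, 1676 and 1593 in Y396E. In RQ it was 2963, 2692 and 2625. The S181E and Y396E libraries thus all lay below those of WT and RQ, which overlapped each other. SCD makes up the largest part of this sum, at 914 ± 32.8 CPM in WT, ahead of SREBF2 at 272 ± 10.8 and FASN at 216 ± 9.29. For the 18 tested enzymes of sterol synthesis alone, WT summed to 873 ± 17.0 CPM and RQ to 841 ± 40.8, against 676 ± 15.4 for S181E and 681 ± 4.46 for Y396E. In RNA of a whole dish, a lower level in every cell and its loss from some of the cells cannot be told apart.

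**Figure D1:**
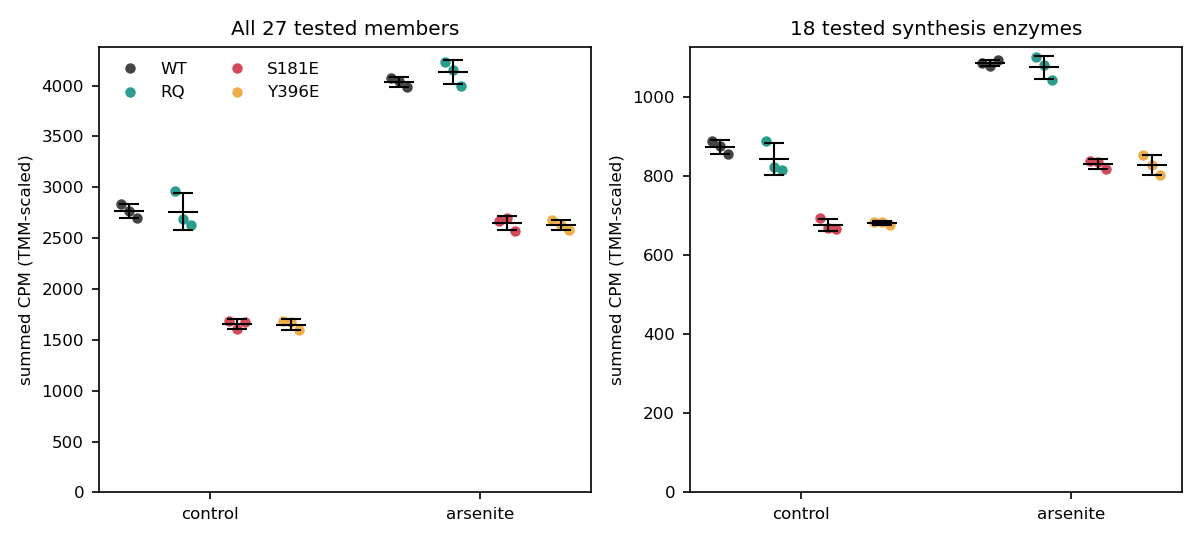
Summed level of the members in each library, in CPM on scaled library totals, for all 27 tested members (left) and for the 18 tested enzymes of sterol synthesis (right). Points are libraries, bars are mean ± SD of 3, and the axes start at 0. S181E and Y396E lie below WT and RQ in control (1656 and 1651 against 2770 and 2760 on the left) and in arsenite (2646 and 2630 against 4035 and 4129).

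Gene by gene, 18 of the 27 tested members were called lower in S181E than in WT control cells and 0 were called higher. Calls needed an adjusted p under 0.05 together with a fold above 1.2, by the edgeR quasi-likelihood F-test, Benjamini-Hochberg adjusted over all 9099 genes. Among all genes tested 15.4% were called lower and 15.7% higher. In Y396E 17 members were called lower and 0 higher, against 14.2% and 14.5% of all genes. The median change of the members was -0.37 in each mutant, against 0.02 and 0.01 for all genes tested. Both mutants were set against the same WT libraries. SCAP was at -0.28 ± 0.06 in S181E, just past the fold threshold, and at -0.26 ± 0.06 in Y396E, where it was not called. With scaling by library totals only, which shifts the median of all genes by 0.16 in S181E and 0.13 in Y396E, 12 and 13 members were lower, and PMVK was called higher in S181E. Without Y396E arsenite replicate 3, which bears on control cells through the common spread, 19 members were called lower in Y396E.

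**Figure D2:**
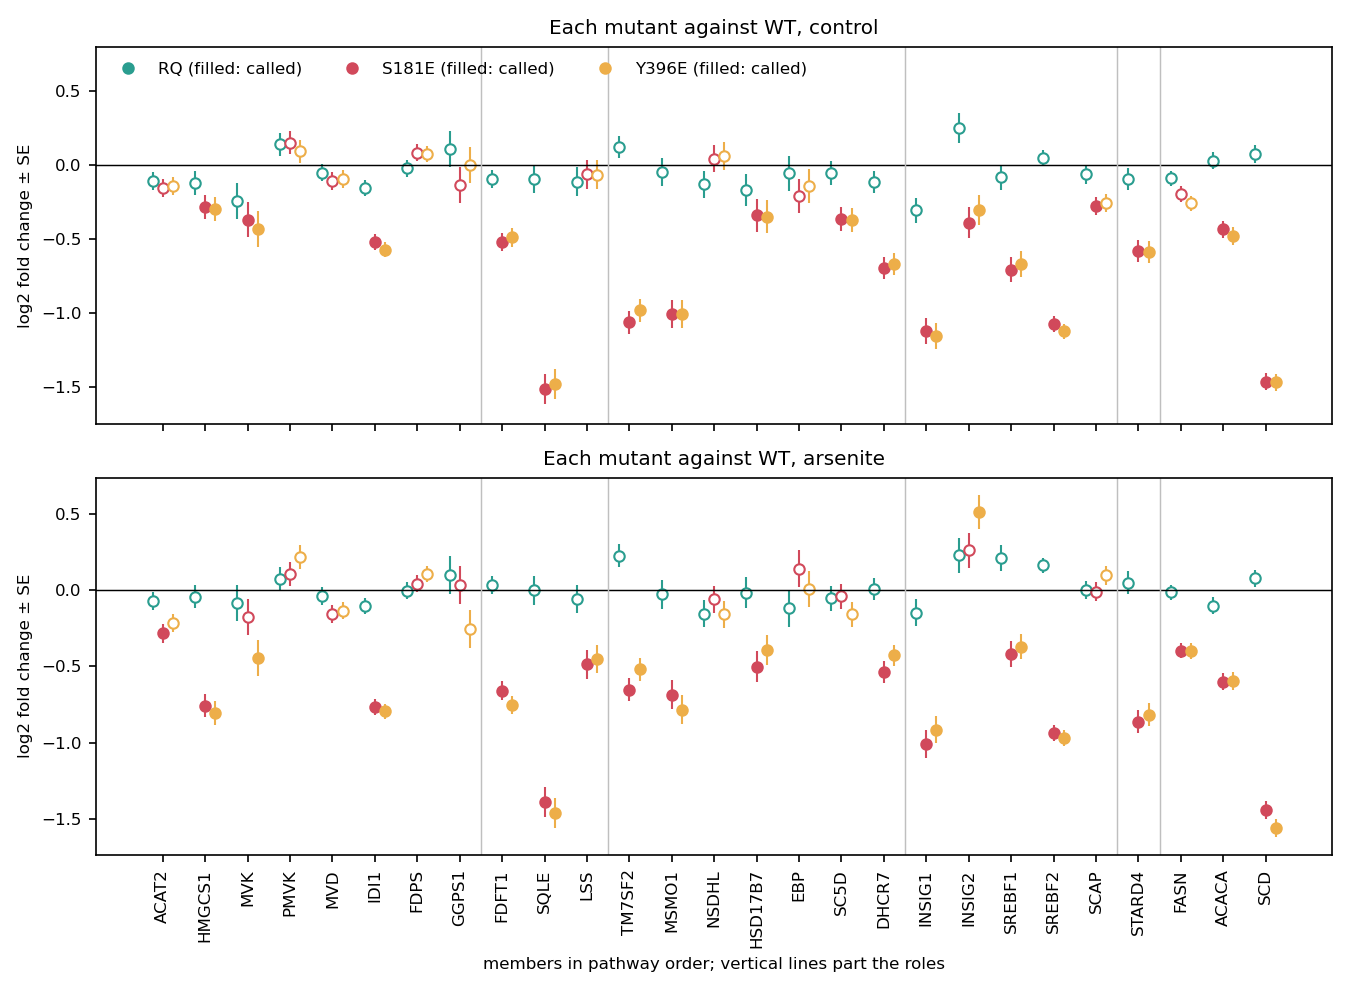
Log2 fold change ± SE (y axis) of each tested member (x axis, in pathway order, with vertical lines between roles) for RQ, S181E and Y396E against WT, in control (top) and arsenite (bottom). Filled points were called. The filled points are all S181E or Y396E, with SQLE and SCD lowest, and INSIG2 in Y396E arsenite cells is the 1 called rise.

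The largest falls in control cells were in SQLE, SCD, INSIG1 and SREBF2, followed by TM7SF2 and MSMO1. SQLE, the squalene epoxidase that is a flux-controlling step of the pathway, was at 55.8, 53.7 and 51.2 CPM in the WT libraries, 17.3, 18.2 and 20.6 in S181E and 18.3, 21.6 and 17.9 in Y396E. RQ was at 55.1, 47.6 and 47.8, so that WT and RQ overlapped and both stood far above the phosphomimetic mutants. The change was -1.52 ± 0.10 in S181E and -1.48 ± 0.10 in Y396E, with adjusted p of 1.65e-11 and 2.5e-11 by edgeR quasi-likelihood, Benjamini-Hochberg adjusted. SCD had 948, 911 and 882 CPM in WT, 336, 319 and 338 in S181E and 329.9, 348 and 311 in Y396E. It fell in both, with -1.47 ± 0.06 and -1.47 ± 0.06, and its RQ libraries, at 1073, 920.4 and 895, overlapped WT.

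**Figure D3:**
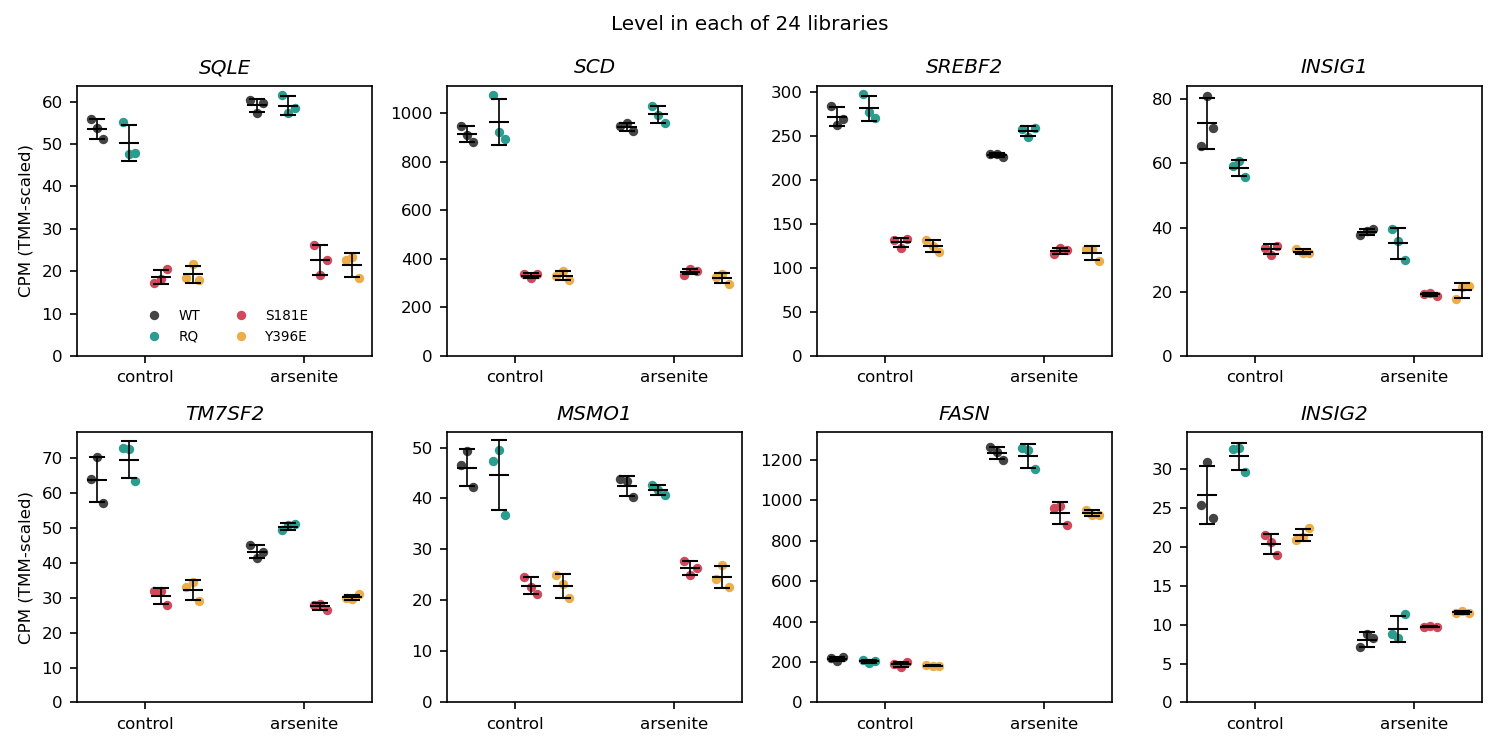
CPM (y axis, from 0) of 8 members in each of the 24 libraries, by treatment and population; points are libraries and bars are mean ± SD of 3. SQLE, SCD, SREBF2, INSIG1, TM7SF2 and MSMO1 are low in S181E and Y396E under both treatments, FASN rises with arsenite in all 4 populations and INSIG2 falls.

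SREBF2, which encodes SREBP2 and is itself one of its targets, was at 284, 263 and 269 CPM in WT and 297, 277 and 270.4 in RQ. In S181E it was at 131, 123 and 133 and in Y396E at 132, 125 and 118. No library of one pair overlapped the other pair, and the change against WT was -1.08 ± 0.05 in S181E and -1.13 ± 0.05 in Y396E (adjusted p of 5.17e-14 and 2.31e-14 by edgeR quasi-likelihood, Benjamini-Hochberg adjusted). Its relative SREBF1 had 195, 181.3 and 161 CPM in WT, 116, 101 and 111 in S181E and 128, 115 and 94.8 in Y396E, with changes of -0.71 ± 0.09 and -0.67 ± 0.09. INSIG1, itself a target of SREBP2, was at 65.4, 81.0 and 71.0 CPM in WT, 33.8, 31.5 and 34.4 in S181E and 33.3, 32.1 and 32.0 in Y396E. INSIG1 fell by more than 1 log2 unit, with -1.12 ± 0.09 and -1.16 ± 0.09. INSIG2, its paralog, changed by -0.39 ± 0.10 and -0.30 ± 0.10. All 5 members of the SREBP control group fell in S181E, and all but SCAP in Y396E.

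Among the enzymes of the last steps, TM7SF2, a sterol reductase, was at 64.0, 70.2 and 57.3 CPM in WT, 31.9, 32.0 and 27.9 in S181E and 33.2, 34.7 and 29.2 in Y396E. MSMO1, the sterol methyl oxidase, was at 46.6, 49.3 and 42.2 CPM in WT, 24.7, 22.7 and 21.3 in S181E and 25.1, 23.3 and 20.4 in Y396E. Their changes were near 1 log2 unit, -1.06 ± 0.08 and -0.98 ± 0.08 for TM7SF2 and -1.01 ± 0.10 and -1.01 ± 0.10 for MSMO1, and no mutant library reached a WT library. DHCR7, the last reductase, went from 98.7 ± 2.61 to 60.9 ± 4.74 and 62.1 ± 5.75 CPM, and SC5D, the sterol desaturase, from 41.6 ± 2.78 to 32.3 ± 1.70 and 32.2 ± 1.43. HSD17B7, a ketoreductase of the same stretch, fell by less, with -0.34 ± 0.11 and -0.35 ± 0.11. The other 2 tested enzymes of this stretch were not called. NSDHL stood at 0.04 and 0.06, and EBP at -0.21 and -0.14. Thus 5 of 7 tested enzymes between lanosterol and cholesterol fell in each mutant. CYP51A1, the first enzyme of this stretch, was at 6.33 ± 1.56 CPM in WT, 5.11 ± 0.404 in S181E and 4.93 ± 0.353 in Y396E. With a filter of 1 CPM in 3 libraries, under which it could be tested, its changes were -0.30 ± 0.19 and -0.37 ± 0.19 and were not called. Its exons share 71.8% of their bases with another gene on the same strand, and those of EBP share 57.1%, so reads there could not be assigned and both levels are uncertain.

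Fewer of the early steps were called. Of the 8 mevalonate and isoprenoid enzymes, 3 fell in each mutant. IDI1, the isopentenyl diphosphate isomerase, fell most, from 51.9 ± 1.30 to 36.2 ± 1.85 and 34.9 ± 1.10 CPM, a change of -0.52 ± 0.05 and -0.57 ± 0.05. MVK, the mevalonate kinase, changed by -0.37 ± 0.12 and -0.43 ± 0.12. HMGCS1, the HMG-CoA synthase, changed by -0.29 ± 0.08 and -0.30 ± 0.08, and its libraries barely parted, at 37.1, 29.8 and 38.9 CPM in WT against 29.2, 28.5 and 29.3 in S181E. The remaining 5 were not called in either mutant. ACAT2, the cytosolic thiolase that opens the pathway, stood at -0.15 and -0.14, MVD at -0.11 and -0.09, and PMVK at 0.15 and 0.09. FDPS stood at 0.09 and 0.08, and GGPS1, which makes the lipid used for protein prenylation, at -0.13 and -0.00.

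Of the 3 squalene steps, FDFT1, the squalene synthase, fell as SQLE did. FDFT1 was at 83.7, 75.7 and 83.4 CPM in WT, 56.3, 56.6 and 56.7 in S181E and 55.3, 58.1 and 59.6 in Y396E. Its change was -0.52 ± 0.06 and -0.49 ± 0.06, with adjusted p of 3.27e-07 and 9.55e-07 by edgeR quasi-likelihood, Benjamini-Hochberg adjusted, and RQ (81.3, 73.7 and 72.6 CPM) overlapped WT. LSS, the lanosterol synthase, was not called, with -0.06 ± 0.10 and -0.06 ± 0.10. STARD4, a carrier that moves cholesterol between membranes, fell from 38.1 ± 2.69 to 25.5 ± 1.21 and 25.4 ± 1.69 CPM. Of the fatty acid genes besides SCD, ACACA, the acetyl-CoA carboxylase, fell by 0.43 and 0.48 on the log2 scale. FASN, the fatty acid synthase, stood at -0.20 ± 0.05 and -0.26 ± 0.05, with adjusted p of 0.00288 and 0.00025 by edgeR quasi-likelihood, Benjamini-Hochberg adjusted but folds under 1.2.

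SREBP2 acts on promoters through the sterol regulatory element, together with NF-Y and Sp1, general factors that bind nearby. RefSeq promoters (GRCh38.p14, 250 bases before to 50 after a start site) were at hand for 24 of the 28 members, and ACAT2, FDFT1, SQLE and FASN had none. The letters TCACNCCAC were found on either strand in 1 of the 24, SREBF2, against 1.39% of all 27305 genes with a promoter. ATTGG, the NF-Y box, was in 19 of 24 (79.2%) against 39.7% of all genes. GGGCGG, an Sp1 box, was in 23 (95.8%) against 48.3%, and CACGTG, an E-box, in 4 (16.7%) against 8.77%. The 27305 genes include many that were not tested here, so they are not matched to the members. A match in any promoter of a gene counted, with 34 promoters for the 24 members and 35116 for all genes. Members that fell and members that did not fall both held NF-Y boxes. The 250 bases before the start site are shown for SREBF2 (chr22:41832855-41833104, + strand), with the sterol regulatory element in capitals, 133 bases before the start. For MSMO1 (chr4:165327419-165327668, + strand) and SCD (chr10:100346983-100347232, + strand), which fell, and for NSDHL (chrX:152830813-152831062, + strand), which was not called, the NF-Y boxes are in capitals in either orientation, 4, 2 and 5 of them, 2 of the 5 in NSDHL overlapping.
SREBF2: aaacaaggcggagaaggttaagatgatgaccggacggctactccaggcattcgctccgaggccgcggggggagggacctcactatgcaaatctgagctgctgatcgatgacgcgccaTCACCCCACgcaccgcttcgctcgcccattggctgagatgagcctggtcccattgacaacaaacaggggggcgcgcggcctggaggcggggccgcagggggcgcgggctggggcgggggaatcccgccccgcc
MSMO1: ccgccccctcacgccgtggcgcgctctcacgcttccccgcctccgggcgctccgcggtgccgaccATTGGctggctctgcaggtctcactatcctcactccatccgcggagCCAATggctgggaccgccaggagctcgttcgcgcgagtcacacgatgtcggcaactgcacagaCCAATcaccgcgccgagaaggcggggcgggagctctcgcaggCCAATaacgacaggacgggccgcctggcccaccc
SCD: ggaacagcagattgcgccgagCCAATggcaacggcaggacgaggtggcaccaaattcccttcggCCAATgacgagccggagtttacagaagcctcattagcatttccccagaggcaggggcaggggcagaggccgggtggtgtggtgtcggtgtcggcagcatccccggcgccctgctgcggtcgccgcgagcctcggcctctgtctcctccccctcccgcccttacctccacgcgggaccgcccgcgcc
NSDHL: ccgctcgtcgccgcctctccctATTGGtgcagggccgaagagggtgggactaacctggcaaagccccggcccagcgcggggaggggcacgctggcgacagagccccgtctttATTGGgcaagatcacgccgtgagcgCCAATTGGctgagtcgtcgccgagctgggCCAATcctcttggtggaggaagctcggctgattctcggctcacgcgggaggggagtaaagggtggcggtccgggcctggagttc
These matches describe the letters only. The SREBF2 stretch also holds the letters ATTGG, which are not in capitals there. Whether motif content goes with the size of the changes was not tested.

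Both FDFT1 and SQLE lie on chromosome 8 (hg38, 11795573 to 11839395 and 124998497 to 125022283), and SQLE lies in the stretch past the start of HGSNAT (43140464) in which most genes were lower in S181E and Y396E. The 206 other tested genes of that stretch had a median change of -0.62 in S181E and -0.60 in Y396E control cells, and 180 and 186 of them were called lower. SQLE lay 0.90 and 0.88 below these medians, with 2 and 1 of the 206 genes lower still. In arsenite the medians were -0.57 and -0.60, SQLE lay 0.82 and 0.86 below, and 1 and 4 genes were lower still. FDFT1 lies before the stretch, among 114 other tested genes with a median of 0.12 in each mutant in control cells. It was lower than all but 2 of these in each mutant. What share of the SQLE change goes with its place in the stretch was not tested. The other 25 tested members lie on other chromosomes, and with scaling factors computed without chromosome 8 genes no call of a member in these comparisons was lost.

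**Figure D4:**
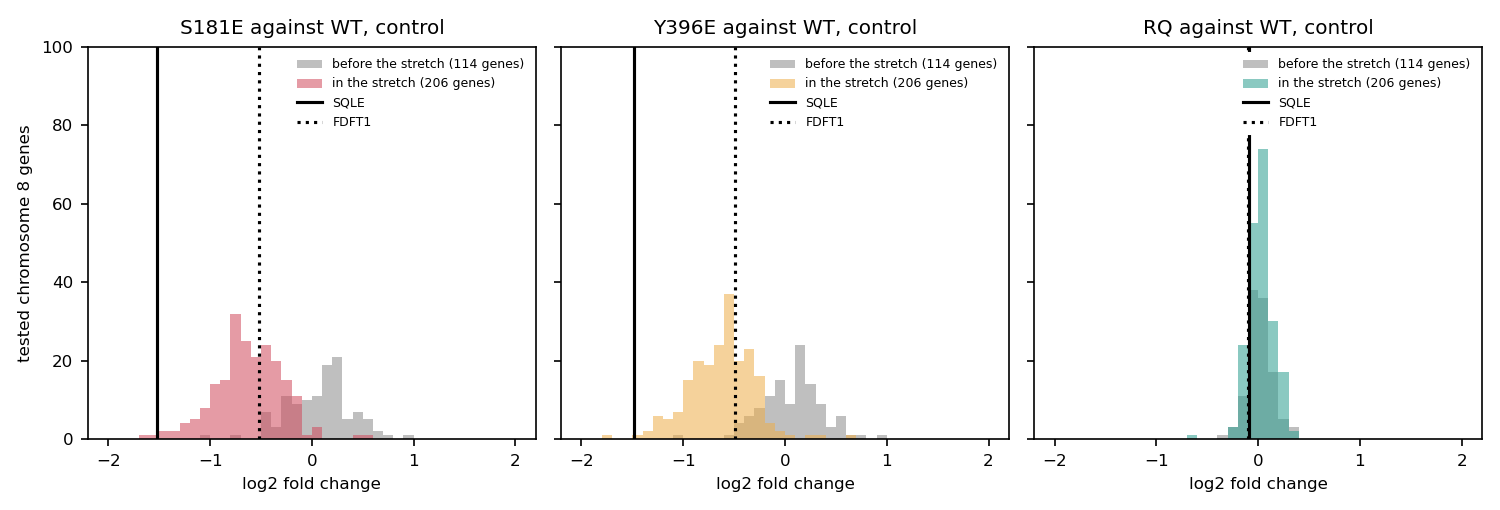
Number of tested chromosome 8 genes (y axis) by log2 fold change against WT in control cells (x axis, bins of 0.1), for genes before the stretch that begins at HGSNAT (grey, 114 genes) and in it (colour, 206 genes). The solid line is SQLE and the dotted line FDFT1. In S181E and Y396E the stretch is shifted to medians of -0.62 and -0.60, with SQLE near its low end and FDFT1 at the low end of the grey genes, while in RQ both regions centre near 0 and the 2 lines coincide at -0.09.

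No member was called in RQ. In control cells 0 of the 27 members were called lower and 0 higher in RQ against WT, where 0.429% of all genes were called lower and 1% higher. The median change was -0.08, and 3 members had an unadjusted p under 0.05. The largest change was that of INSIG1, at -0.31 ± 0.08 with an adjusted p of 0.0577 by edgeR quasi-likelihood, Benjamini-Hochberg adjusted, and its RQ libraries (59.1, 60.9 and 55.8 CPM) lay below those of WT. INSIG1 was called in DESeq2, at -0.30. In arsenite 0 members were called either way in RQ, against 0.154% of all genes lower and 1.36% higher, with a median of -0.02 and 4 members at an unadjusted p under 0.05. DESeq2 called 0 members there. The changes in arsenite ranged from -0.15 ± 0.09 for NSDHL to 0.23 ± 0.11 for INSIG2. The labels do not say that replicate numbers pair dishes. In these 2 comparisons deviations of same-numbered libraries from their group means correlated, with r of 0.291 to 0.525 in control and 0.147 to 0.150 in arsenite. The fit of all groups with the replicate number as a block also called 0 members. With the block among only the 2 groups compared, a fit chosen after seeing the data, INSIG1 was called lower in RQ control cells.

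S181E and Y396E were also set against each other. In control cells 0 of the 27 members were called and 0% of all genes, and 0 members had an unadjusted p under 0.05. The differences ran from -0.06 ± 0.05 for FASN to 0.13 ± 0.12 for GGPS1. In arsenite 0 members and 0% of all genes were called, and 3 members had an unadjusted p under 0.05. The differences ran from -0.28 ± 0.13 for GGPS1 to 0.25 ± 0.11 for INSIG2, and GGPS1 was called lower in Y396E, at -0.44, when Y396E arsenite replicate 2 was left out, and stood at -0.07 without replicate 3. DESeq2 called 0 members in either treatment. The SE of these differences was 0.05 to 0.13 over the members.

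After arsenite the mutants still had less RNA of the pathway than WT. Summed over the 27 members, WT had 4035 ± 45.2 CPM and RQ 4129 ± 117, against 2646 ± 70.2 for S181E and 2630 ± 50.0 for Y396E, whose libraries were at 2679, 2632 and 2579. In S181E 17 members were called lower and 0 higher, against 8.42% and 5.32% of all genes, with a median of -0.49. In Y396E 17 were called lower and 1 higher, against 11.9% and 9.77%, with a median of -0.43. Without Y396E arsenite replicate 3 these were 16 and 1, with a median of -0.38. SCD, SQLE, INSIG1 and SREBF2 again fell most. SCD was at 947, 957 and 924 CPM in WT, 335, 357 and 349.7 in S181E and 326, 336 and 297 in Y396E, a change of -1.44 ± 0.06 and -1.56 ± 0.06. SQLE was at 60.5, 57.4 and 59.6 CPM in WT, 26.1, 19.1 and 22.7 in S181E and 22.7, 23.4 and 18.3 in Y396E, and RQ (61.5, 57.3 and 58.5) overlapped WT.

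HMGCS1, STARD4 and most other members lower in control cells were lower in arsenite too. HMGCS1 in arsenite was at 88.4, 82.4 and 86.4 CPM in WT, 49.7, 51.2 and 51.2 in S181E and 50.8, 51.8 and 44.4 in Y396E, and the gap to WT was -0.76 ± 0.08 and -0.81 ± 0.08. LSS, not called in control cells, was called lower in arsenite, with -0.49 ± 0.09 and -0.45 ± 0.09, and so was FASN, with -0.40 ± 0.05 and -0.40 ± 0.05. STARD4 in arsenite was at 28.3, 29.3 and 28.3 CPM in WT, 15.6, 14.5 and 17.0 in S181E and 15.5, 17.0 and 16.2 in Y396E, a change of -0.86 ± 0.08 and -0.82 ± 0.08. ACAT2 was called lower in S181E (-0.28 ± 0.06) and MVK in Y396E (-0.44 ± 0.12), and the call of MVK was lost without Y396E arsenite replicate 3, in which its level was lowest (24.4, 22.0 and 13.96 CPM). SC5D, called lower in control cells, stood at -0.04 and -0.16. A call in 1 treatment alone does not show that the treatments differ. INSIG2 was the 1 member higher than WT, at 11.5, 11.8 and 11.4 CPM in Y396E against 7.06, 8.85 and 8.30 in WT, a change of 0.51 ± 0.11, and stood at 0.26 ± 0.11 in S181E. Without Y396E arsenite replicate 3 the changes in Y396E were -1.497 for SCD, -0.73 for HMGCS1, -0.39 for LSS, -0.80 for STARD4 and 0.53 for INSIG2, all still called.

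Arsenite itself moved the members in both directions. In WT cells 12 of 27 were called higher and 8 lower, where 36.3% of all genes were called higher and 35.9% lower, shares of members (44.4% and 29.6%) close to those of all genes. In S181E the counts were 13 higher and 5 lower (32% and 33.3% of all genes), in Y396E 11 and 5 (32.9% and 32.9%), and in RQ 12 and 8 (37.1% and 35.8%). Scaling by library totals only, which moves the all-gene median up by 0.16 in both WT and RQ, gave 14 higher and 4 lower in WT and 15 and 4 in RQ. Without Y396E arsenite replicate 3 the Y396E counts were 13 and 5, with SQLE and MVK then called higher, each at 0.29. Members had median changes of 0.14 (WT), 0.21 (S181E), 0.16 (Y396E) and 0.23 (RQ). These counts and medians include HSD17B7, which entered the tested set through its arsenite libraries, and INSIG2, which entered through its control libraries.

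**Figure D5:**
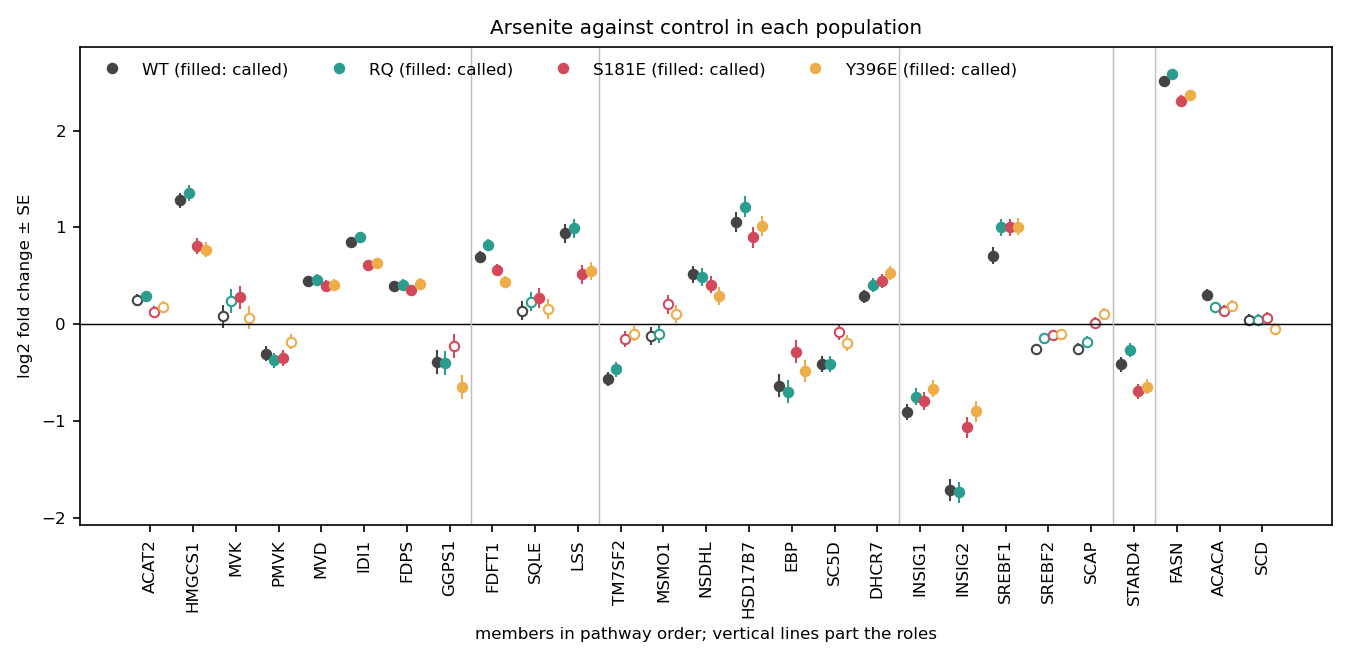
Log2 fold change ± SE (y axis) of each tested member (x axis, in pathway order) between arsenite and control in WT, RQ, S181E and Y396E. Filled points were called. FASN rose most (2.51 in WT) and INSIG2 fell most (-1.71 in WT), and for HMGCS1, LSS and INSIG2 the S181E and Y396E points lie nearer to 0 than those of WT and RQ.

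The largest rise was that of FASN. Its level in WT went from 219, 206 and 224 CPM in control to 1263, 1239.7 and 1200.0 in arsenite, with no overlap, a change of 2.51 ± 0.05 (adjusted p of 1.44e-22 by edgeR quasi-likelihood, Benjamini-Hochberg adjusted). In RQ it rose by 2.59 ± 0.05, and in S181E and Y396E by 2.31 ± 0.05 and 2.37 ± 0.05. The other fatty acid genes did not follow to that extent. ACACA changed by 0.30 ± 0.06 in WT and was called in no other population, and SCD stood at 0.05 in WT and between -0.05 and 0.07 in the mutants.

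Along the sterol pathway the rises were spread over all 3 stretches. HMGCS1 rose by 1.28 ± 0.08 in WT and 1.36 ± 0.08 in RQ, and by 0.81 ± 0.08 in S181E and 0.77 ± 0.08 in Y396E. HSD17B7 went from 8.02, 8.75 and 8.57 to 17.4, 17.99 and 17.4 CPM in WT, a change of 1.06 ± 0.10. Tested genes needed more than 10 CPM in at least 12 of the 24 libraries. HSD17B7 passed this through its arsenite libraries, so its rise is not independent of the filter. LSS went from 23.9, 16.9 and 24.4 to 44.03, 40.8 and 40.7 CPM, a change of 0.94 ± 0.10, and IDI1 and FDFT1 rose by 0.85 ± 0.05 and 0.70 ± 0.06. These 5 genes rose in all 4 populations, as did MVD, FDPS, NSDHL and DHCR7, with changes in WT of 0.29 to 0.51. SREBF1 rose too, from 195, 181.3 and 161 to 298, 284 and 296 CPM in WT (0.71 ± 0.08). It rose by 1.00 ± 0.09 in S181E, 1.01 in Y396E and 1.00 in RQ, and none of these responses was called different from that of WT. SREBF2 was called in no population, and stood at -0.25 ± 0.05 in WT, a fold under 1.2. SQLE stood at 0.14 ± 0.09 in WT and 0.23 ± 0.10 in RQ and was called higher in S181E (0.27 ± 0.10), where its libraries overlapped and 3 of the 24 single left-out libraries ended the call.

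The INSIG genes fell. INSIG2 went from 25.3, 30.9 and 23.7 to 7.06, 8.85 and 8.30 CPM in WT and from 32.6, 32.6 and 29.6 to 8.81, 8.23 and 11.4 in RQ, with changes of -1.71 ± 0.11 and -1.73 ± 0.11. In S181E it went from 21.4, 20.6 and 18.9 to 9.72, 9.83 and 9.64 CPM, and in Y396E from 20.9, 21.3 and 22.4 to 11.5, 11.8 and 11.4, smaller falls of -1.06 ± 0.11 and -0.90 ± 0.11. INSIG2 was above 10 CPM in every control library and below it in the WT arsenite libraries. It passed the filter through its control libraries, so its falls are not independent of the filter. INSIG1 went from 65.4, 81.0 and 71.0 to 37.6, 38.8 and 39.6 CPM in WT, a change of -0.90 ± 0.09, and by -0.79, -0.66 and -0.75 in S181E, Y396E and RQ. STARD4 and EBP also fell in all 4 populations, by 0.41 and 0.63 on the log2 scale in WT. TM7SF2 and SC5D were called lower in WT and RQ, GGPS1 in WT, RQ and Y396E, and PMVK in WT, RQ and S181E. The fall of GGPS1 in Y396E was -0.64 ± 0.12, and -0.40 without replicate 3, whose level was lowest (18.8, 19.7 and 11.1 CPM). ACAT2 was called higher in RQ (0.29) and MVK in S181E (0.28), and SCAP in no population. MSMO1 was called in no population, and stood at -0.12 in WT.

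Whether the arsenite response of a mutant differed from that of WT was tested directly. In S181E 4 members had a higher response than WT and 2 a lower one, against 6.98% and 9.41% of all genes. In Y396E 3 were higher and 2 lower, against 10.3% and 11.1%, and in RQ 0 and 0, against 0.22% and 0%, with 1 member of RQ at an unadjusted p under 0.05 and 0 called in DESeq2. HMGCS1 rose less than in WT, by -0.47 ± 0.11 in S181E and -0.51 ± 0.11 in Y396E. LSS rose less by -0.42 ± 0.14 and -0.39 ± 0.14, and stood at -0.30, not called, in Y396E without its arsenite replicate 3. TM7SF2 and INSIG2 fell less, by 0.41 ± 0.11 and 0.47 ± 0.11 for TM7SF2 and 0.65 ± 0.16 and 0.82 ± 0.15 for INSIG2. SCAP differed by 0.26 ± 0.09 and 0.35 ± 0.09. SC5D was called in S181E, at 0.32 ± 0.12, and stood at 0.21 ± 0.12 in Y396E. SREBF2, SQLE, SCD, INSIG1 and MSMO1, among the members with the largest falls in control cells, had no called difference in response. The number of calls here moved with the data used. Scaling by library totals only gave 2 higher and 6 lower in S181E and 2 and 5 in Y396E, with the median of all genes shifted by -0.11 and -0.10. Without Y396E arsenite replicate 3 there were 7 higher and 2 lower in S181E and 6 and 1 in Y396E.

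Parental HCT116 cells gave 1 library per treatment, so the comparison with them has no test. In control, the WT population was lower than the parental library by more than 1.2-fold in 14 of 27 members and higher in 2, with a median of -0.29 on the log2 scale, where 13.8% of all genes tested were lower by that much. S181E and Y396E were lower in 21 members each, with medians of -0.63 and -0.63, and higher in 0, and RQ was lower in 16 and higher in 3, with a median of -0.39. The shares of all genes that were lower by that much were 15.0%, 14.3% and 17.7%. Those higher by that much were 14.2% of all genes for WT, 14.2% for S181E, 13.3% for Y396E and 16.8% for RQ. The lowest value was that of SQLE in S181E, at -2.04, and in WT it was that of FDFT1, at -1.01. The parental level of SQLE was 76.8 CPM and that of SCD 998 CPM. Arsenite in the parental cells moved FASN from 265 to 1357 CPM and INSIG2 from 30.8 to 13.3 CPM.

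Other genes of sterol and lipid supply were taken from a list of 29, of which 27 were tested. This list too was chosen with earlier results of these data known. In S181E control cells 15 were called lower and 1 higher, and in Y396E 14 and 1, where 15.4% and 14.2% of all genes were lower and 15.7% and 14.5% higher. Of the 12 genes of lipid supply 10 and 9 were lower. The largest fall was that of FADS1, a fatty acid desaturase, at -0.93 ± 0.06 in S181E, and in Y396E that of ELOVL6, a fatty acid elongase, at -0.92 ± 0.09. ACLY, which makes cytosolic acetyl-CoA from citrate, was the 1 gene called higher, at 0.42 ± 0.06 and 0.31 ± 0.06. In arsenite 7 were lower and 1 higher in S181E (8.42% and 5.32% of all genes), with the largest fall in RNF139 at -0.75 ± 0.07 and the rise in PAQR3 at 0.35 ± 0.08. RNF139, like SQLE, lies in the stretch of chromosome 8 whose median there was -0.57. In Y396E 8 were lower and 0 higher (11.9% and 9.77% of all genes), and 6 and 1 without Y396E arsenite replicate 3, with the largest fall in ELOVL6 at -0.74 ± 0.09. RQ had 0 calls in this list in either treatment. In WT, arsenite raised 8 and lowered 18 of these genes, 29.6% and 66.7% of them, where 36.3% and 35.9% of all genes were called. The 9 genes of SREBP processing and sterol sensing, among them the proteases MBTPS1 and MBTPS2 that cut SREBP, all fell in WT and in RQ, with 7 of 9 called lower in S181E and 6 in Y396E, where 32.9% to 35.9% of all genes were called lower in the 4 populations. In WT the largest rise of the list was that of ACLY, at 2.08 ± 0.06, just above MYLIP, a ubiquitin ligase for lipoprotein receptors, at 2.08 ± 0.12, and the largest fall that of SPRING1, which helps to activate the SREBP proteases, at -1.24 ± 0.07. The response of ACLY differed from WT by -0.49 ± 0.08 in S181E and -0.43 ± 0.08 in Y396E, and that of NPC2, a lysosomal cholesterol carrier, by 0.49 ± 0.12 and 0.42 ± 0.11. In all, 3 responses were higher and 1 lower than in WT in S181E, 11.1% and 3.7% of the list, against 6.98% and 9.41% of all genes. In Y396E 4 were higher and 1 lower, 14.8% and 3.7%, against 10.3% and 11.1% of all genes. Without Y396E arsenite replicate 3 the counts were 10 and 1 in S181E and 6 and 1 in Y396E.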

How the data were processed

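Gene counts of 26 input RNA libraries were used, and the libraries of immunoprecipitated RNA were not analysed here. The authors made the deposited counts from single reads with STAR 2.7.11b on hg38 and featureCounts of Subread 2.0.6 (strand setting 2, GENCODE 46), after bcl2fastq (version 2.20.0.422) and quality checks in FastQC (version 0.11.9), where reads in overlapping same-strand exons could not be assigned to a gene. Symbols came from GENCODE 44, which matched 62541 of 63086 identifiers (99.1%).

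From the counts, protein-coding genes above 10 CPM in at least 12 of 24 libraries were kept (9099 genes). Scaling factors (TMM, 0.866 to 1.08) and edgeR 4.0.16 (R 4.3.3, limma 3.58.1) quasi-likelihood fits of 8 groups of 3 libraries gave 15 comparisons with 16 residual degrees of freedom, a biological coefficient of variation of 0.0682, and a median SE of 0.0774 for 2 groups and 0.109 for differences of responses. Benjamini-Hochberg adjustment ran over all 9099 genes. Scripts were tested on simulated data. Totals of 22508145 to 50834401 counts per library set the precision.

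All 28 members were named by pathway step. Values by library were given for the 5 largest called changes in arsenite against control in WT and in each phosphomimetic mutant against WT, and for SQLE, FDFT1, INSIG1, INSIG2, SREBF1 and SREBF2. The members and lists were chosen with earlier results of these data known. Replicate numbers come from the labels, which do not say that they pair dishes, and deviations of same-numbered libraries from their group means correlated with r of -0.0434 to 0.525 over 36 pairs, 12 over 0.1, and every pair was over 0.1 only for RQ against WT, in control and in arsenite. Alternatives were other scalings, filters, thresholds, DESeq2 1.42.0, a replicate block, fewer groups and leaving out each library. The block within the compared groups, and the other sterol and lipid genes without Y396E arsenite replicate 3, were added after seeing the data.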

Additional observations from a re-analysis of the deposited data

Results flagged for a closer look

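For 11 results the arsenite response of a mutant differed from that of WT in the direct test of the difference (edgeR quasi-likelihood, Benjamini-Hochberg adjusted over all genes), and both mutants were set against the same WT libraries. Of 27 members, 14.8% were called higher and 7.4% lower in S181E, against 6.98% and 9.41% of all genes tested. For Y396E the shares of members were 11.1% and 7.4%, against 10.3% and 11.1% of all genes. In S181E the difference of HMGCS1 was -0.47 ± 0.11 (adjusted p = 0.00618) and that of LSS -0.42 ± 0.14 (adjusted p = 0.0313), each a smaller rise than in WT. TM7SF2 differed by 0.41 ± 0.11 (adjusted p = 0.0114), SC5D by 0.32 ± 0.12 (adjusted p = 0.0496) and INSIG2 by 0.65 ± 0.16 (adjusted p = 0.0062), where WT fell more than S181E. SCAP differed by 0.26 ± 0.09 (adjusted p = 0.0366).

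In Y396E the differences were -0.51 ± 0.11 for HMGCS1 (adjusted p = 0.00282), -0.39 ± 0.14 for LSS (adjusted p = 0.0383), 0.47 ± 0.11 for TM7SF2 (adjusted p = 0.00368), 0.82 ± 0.15 for INSIG2 (adjusted p = 0.000822) and 0.35 ± 0.09 for SCAP (adjusted p = 0.00569). HMGCS1, TM7SF2 and INSIG2 stayed called in both mutants in all 34 alternative fits. SC5D in S181E lost its call in 19 of them, LSS in 8 for S181E and 12 for Y396E, and SCAP in 11 and 2.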

How the results depend on the processing

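Of 155 called results of members, 121 kept their call in all 34 alternative fits, and 0 changed direction. The cause of the changes below was not tested. Scaling by library totals only gave 4 members lower in arsenite in WT (median 0.30) and 4 in RQ (median 0.40), and a median of 0.21 in Y396E. Against WT in control cells it gave 1 higher and a median of -0.21 in S181E, a median of -0.24 in Y396E, and 1 lower and a median of -0.13 in RQ. In arsenite it gave 1 higher in S181E. Differences of responses were 2 higher and 6 lower in S181E (median of -0.089) and 5 lower (median -0.12) in Y396E. For the response of S181E, 2 members were higher with a filter of 1 CPM in 3 libraries (12048 genes) and with all gene types. With no filter (16590 genes) RQ had 1 lower in control, and the responses of S181E and of Y396E each had 1 lower. With only the groups compared, 7 were higher for the response of S181E and 1 lower for that of Y396E. DESeq2 called 1 member lower in RQ control cells, INSIG1. With no fold threshold, 2 were higher in Y396E in arsenite, and 4 were lower for the response of S181E and 4 for that of Y396E. With a fold above 1.5, arsenite gave 7 higher and 3 lower in WT and in RQ, 5 and 3 in S181E and 5 higher in Y396E. Against WT, 8 (S181E) and 9 (Y396E) were then lower in control, 11 and 10 in arsenite with 0 higher in Y396E, and the responses of S181E and of Y396E each had 1 higher and 0 lower.

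The replicate block in the fit of all groups ended 0 calls of members and added 3 of 405 results, the responses of MSMO1 in S181E (0.33) and of FDFT1 (-0.26) and SREBF1 (0.30) in Y396E. Among only the groups compared, the replicate block gave 1 lower in RQ control cells, 0 higher in Y396E in arsenite, 7 higher for the response of S181E and 1 lower for that of Y396E.

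Leaving out 1 library at a time gave 3 to 5 members lower in arsenite in S181E, medians of 0.11 to 0.23 for arsenite in Y396E, medians of -0.43 to -0.34 in S181E control cells, and 0 to 1 lower in RQ control cells. In arsenite, S181E had 0 to 1 higher and medians of -0.51 to -0.43, and Y396E against S181E 0 to 1 lower. Differences of responses were 2 to 7 higher and 1 to 3 lower in S181E, and 3 to 6 and 1 to 3 in Y396E. Without Y396E arsenite replicate 3 the higher counts were 7 and 6, and without S181E control replicate 1 that of S181E was 2. With 3 libraries per group, small differences of weakly counted members such as CYP51A1 could not be resolved.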
